A study of Rattus norvegicus with 84 samples.

Results

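Core Ctx_Coc and Ctx_Sal are rat nucleus accumbens core libraries of the condition labelled Ctx, from cocaine and saline animals. The comparison covers 13 of the 84 libraries of the series, 6 of Core Ctx_Coc and 7 of Core Ctx_Sal. They were chosen by the labels and by 1 measured value: the Ctx_Coc library 17-F was left out for its high background signal. The whole series holds 12 groups of 7 libraries, 1 for every combination of subregion (Core or Shell), drug (Coc for cocaine, Sal for saline) and a condition written as Ctx, HC or Ext, which makes 3 conditions. All groups are wild-type Long-Evans rats; the labels give no transgene, age, dose or time for them. Ext is extinction; HC and Ctx are left as the labels write them, since no label spells them out. The labels do not say that the 7 libraries of a group came from separate animals, so p-values measure the spread between libraries, which may be technical in part.

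The nucleus accumbens is the ventral part of the striatum, and most of its neurons are GABAergic projection neurons that carry D1-type or D2-type dopamine receptors. Cocaine blocks the dopamine transporter and raises extracellular dopamine, which acts on these receptors. A place or cue that was paired with the drug can later drive drug seeking, and the core subregion takes part in that behaviour. Immediate early genes such as Fos, Arc and Egr1 are switched on for a short time in active neurons and are commonly used as a readout of such an exposure. The question put to the data is which transcripts of the core differ between cocaine and saline animals in the Ctx condition, and whether that difference is unlike the one in HC, in Ext or in the shell.

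The 13 libraries hold between 14359693 and 21772484 counts each. Library names fall into 3 series, here called 1, 2 and F after the first digit or the letter of the name. Series 1 gives 2 libraries to each drug group, series 2 gives 3 to each, and series F gives 1 to Ctx_Coc and 2 to Ctx_Sal. What the series stand for is not stated, and they entered the fit as a covariate. Marker genes of the accumbens were present in every library: the striatal projection neuron list summed to 2801 to 4695 CPM (a gene’s share of all counts of its library, on a fixed scale) in Ctx_Coc and to 2922 to 3859 CPM in Ctx_Sal.

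The background was read from olfactory and vomeronasal receptor genes, which a brain sample should hardly express. Their summed level was 1365 and 587 CPM in the series 1 Ctx_Coc libraries 1-14 and 1-15, against 166 and 121 CPM in the Ctx_Sal libraries 1-17 and 1-18. In series 2 the cocaine libraries 2-13, 2-14 and 2-15 stood at 1097, 1562 and 1266 CPM, and the saline libraries 2-16, 2-17 and 2-18 at 1302, 575 and 1225 CPM. In series F the order was the opposite of series 1, with 72.4 CPM in the cocaine library 19-F and 151 and 894 CPM in the saline libraries 21-F and 23-F. The library left out, 17-F, stood at 4395 CPM, and the highest of those kept, 2-14, at 1562 CPM. In 17-F the mitochondrial protein genes took 0.576% of counts, against 1.53% to 2.87% in the 13 libraries kept, and Drd1 was at 7.72 CPM, against 32.3 CPM or more in those kept.

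**Figure D1:**
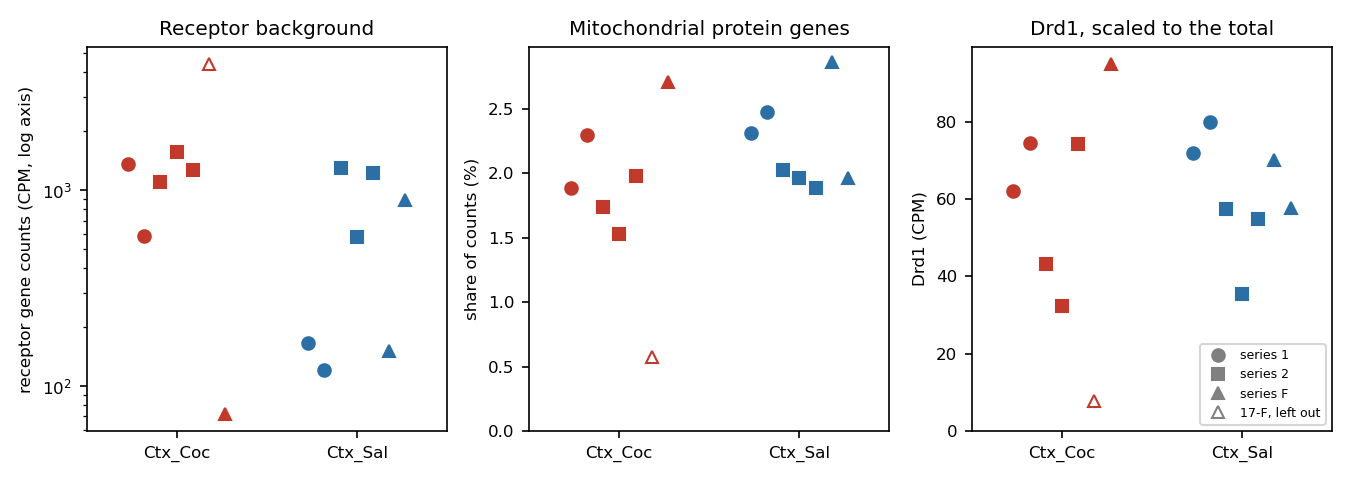
Receptor background (CPM, log axis), share of counts in mitochondrial protein genes (%) and Drd1 (CPM of total counts) in each Core Ctx library; each point is 1 library, its shape the series, and the open triangle is 17-F, which was left out. Background is higher in Ctx_Coc than in Ctx_Sal in series 1 (587 and 1365 against 121 and 166 CPM), while the cocaine library 19-F of series F is the lowest of all at 72.4 CPM.

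No gene passed the test between Core Ctx_Coc and Ctx_Sal. Of 32016 genes tested with edgeR's quasi-likelihood test, 0 had a Benjamini-Hochberg adjusted p under 0.05 (0% of those tested), and the lowest adjusted p was 0.613, for Clec11a. At an unadjusted p under 0.05 there were 485 genes with a lower estimate in Ctx_Coc (1.51% of those tested) and 97 with a higher one (0.303%). The DESeq2 Wald test called 1 gene, again Clec11a, at an adjusted p of 0.02, with 401 genes higher and 389 lower at an unadjusted p under 0.05. The precision of the edgeR fit was a median standard error of 0.27 on the log2 scale, so moderate differences in most genes were not detectable in these libraries.

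The estimates leaned to one side according to how strongly a gene was expressed. Over all 32016 genes the median log2 fold change (Ctx_Coc minus Ctx_Sal) was -0.07. That sign was not kept without 19-F (0.02), without 23-F (0.04) or without series F (0.10), and the value was -0.01 with DESeq2 size factors. The 8466 genes with a mean of at least 4 log2 CPM had a median of -0.15, and 7457 of them were negative (88.1%). Their median was -0.22 without 19-F and -0.23 without 23-F. The 7475 genes with a mean under 0 log2 CPM had a median of 0.16, with 5066 positive. This lean moved with the series: the median difference of well-expressed genes was -0.62, -0.08 and 0.38 within series 1, 2 and F. The receptor background moved the opposite way over the same series, with a median difference over 677 receptor genes tested of 1.68, 0.29 and -1.27. How much of any single difference goes with the background was not tested. With the background of each library as a further covariate, the median of the well-expressed genes was -0.02, and 5168 of them were negative.

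Clec11a had the lowest p of all genes tested. It encodes a secreted C-type lectin domain glycoprotein known as a growth factor for blood-forming and bone-forming cells. In Ctx_Coc its level ran from 4.84 to 5.69 CPM with a median of 5.48 CPM (CPM scaled by trimmed mean of M-values, TMM, as for all gene levels that follow). In Ctx_Sal it ran from 5.73 to 10.4 CPM with a median of 8.72 CPM. All 6 cocaine libraries lay below all 7 saline libraries, by a narrow gap. The log2 fold change was -0.58 ± 0.12 (SE), with a 95% interval of -0.82 to -0.34, and the edgeR adjusted p was 0.613. The difference was negative in each series (1, 2 and F), at -0.75, -0.46 and -0.57. With 17-F kept in it was -0.70, and with the background as a covariate -0.52. With DESeq2, which made the call, it was -0.50.

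Clec11a was 1 of 7 genes whose cocaine and saline libraries did not overlap. Lower in Ctx_Coc without overlap were 6 genes (0.0187% of those tested), and higher was 1 (0.00312%). Among the 6 were Pus7, a pseudouridine synthase, with 19.4 to 20.9 CPM in Ctx_Coc and 21.2 to 27.4 CPM in Ctx_Sal. Borcs5, a subunit of the complex that places lysosomes along microtubules, stood at 26.6 to 29.7 CPM against 30.0 to 33.6 CPM. Mpg, a DNA glycosylase of base excision repair, stood at 2.72 to 3.62 CPM against 3.77 to 5.59 CPM. The others were LOC102555319 and LOC120098724, and the gene higher in Ctx_Coc was LOC103695057, at 6.77 to 8.46 CPM against 5.32 to 6.70 CPM. These names were taken after their values were seen; the log2 fold changes of Pus7, Borcs5 and Mpg were -0.16 ± 0.10, -0.12 ± 0.06 and -0.40 ± 0.14 (SE), and none passed the edgeR test.

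Plcd1 and Adcy1 are both signalling enzymes of neurons and glia. Plcd1 encodes phospholipase C delta 1, which splits a membrane phosphoinositide into second messengers. Its level ran from 9.20 to 12.0 CPM in Ctx_Coc, with a median of 11.0 CPM, and from 11.4 to 18.7 CPM in Ctx_Sal, with a median of 13.9 CPM. The groups overlapped slightly, and the log2 fold change was -0.39 ± 0.10 (SE), with series values of -0.31, -0.28 and -0.65 in series 1, 2 and F. Adcy1, the adenylyl cyclase stimulated by calcium and calmodulin, ran from 52.8 to 71.2 CPM in Ctx_Coc (median 61.7) and from 59.0 to 118 CPM in Ctx_Sal (median 73.8). Its log2 fold change was -0.42 ± 0.12 (SE), with series values of -0.35, -0.35 and -0.47. In series 2 the saline library 2-17 stood apart, at 118 CPM for Adcy1 and 18.7 CPM for Plcd1. Libraries 2-16 and 2-18 were at 68.3 and 59.0 CPM for Adcy1 and at 11.4 and 12.0 CPM for Plcd1. The series 2 cocaine libraries ran from 52.8 to 71.2 CPM and from 10.3 to 12.0 CPM. Leaving out each library in turn gave -0.49 to -0.28 for Adcy1 and -0.44 to -0.30 for Plcd1. Trim47, a RING-type tripartite motif protein, was low throughout, at 1.66 to 2.02 CPM in Ctx_Coc and 1.83 to 3.16 CPM in Ctx_Sal. Its log2 fold change was -0.49 ± 0.18 (SE). None of these genes passed the edgeR test. Clec11a, Plcd1, Adcy1 and Trim47 had led an earlier fit of these data.

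Among genes with a standard symbol and a mean of at least 1 log2 CPM, the 10 of lowest p on the lower side were taken. All 10 were negative in all 3 series, and in each of the 10 all 6 cocaine libraries lay below the saline median. In each of the 10 the highest saline library of series 2 was 2-17, which weighs in the series 2 differences. In Tom1 it was at 33.4 CPM, against 22.7 and 19.6 CPM in 2-16 and 2-18. The 10 genes were picked for their low p, so this describes them and tests nothing. Beside Clec11a, Plcd1 and Adcy1 they include a channel subunit and a microglial growth factor. Kcnmb4, the brain-enriched accessory subunit of calcium-activated BK potassium channels, ran from 24.7 to 31.9 CPM in Ctx_Coc (median 28.5) and from 27.3 to 38.6 CPM in Ctx_Sal (median 34.8), a log2 fold change of -0.27 ± 0.08 (SE). Csf1, a ligand of the microglial receptor Csf1r, ran from 13.9 to 18.0 CPM (median 16.0) against 15.6 to 24.0 CPM (median 21.7). The log2 fold change of Csf1 was -0.36 ± 0.10 (SE). Foxp4, a forkhead transcription factor, ran from 23.0 to 27.7 CPM against 26.8 to 36.8 CPM, a log2 fold change of -0.25 ± 0.07 (SE).

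The remaining genes of that set act in membrane traffic and metabolism. Tom1, an endosomal sorting protein, had a log2 fold change of -0.33 ± 0.09 (SE). For Hebp1, a heme-binding protein, it was -0.35 ± 0.10, and for Pgap6, a phospholipase that acts on lipid-anchored proteins, -0.38 ± 0.11. H6pd, which makes NADPH inside the endoplasmic reticulum, stood at 17.4 to 19.6 CPM in Ctx_Coc and 19.2 to 27.5 CPM in Ctx_Sal, a log2 fold change of -0.27 ± 0.08 (SE). In H6pd the series 1 difference was the smallest of the set, at -0.06. The series 1, 2 and F differences of Kcnmb4 were -0.37, -0.08 and -0.51, so series 2 added little there.

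On the higher side, 6 of the 10 genes of lowest p, taken by the same limits of symbol and level, were positive in all 3 series. Drd3, the D3 dopamine receptor, ran from 15.7 to 20.6 CPM in Ctx_Coc (median 19.0) and from 11.4 to 18.7 CPM in Ctx_Sal (median 16.1). Its log2 fold change was 0.29 ± 0.13 (SE), with 0.72, 0.12 and 0.11 in series 1, 2 and F. The series 1 difference was the largest of the 3, and series 1 is also where cocaine libraries had more background. Whether the Drd3 difference goes with the background was not tested. With the background as a covariate, Drd3 had a log2 fold change of 0.21. Adgrv1, a very large adhesion receptor, ran from 104 to 171 CPM against 81.9 to 126 CPM, a log2 fold change of 0.37 ± 0.14 (SE). All 6 cocaine libraries were above its saline median, and the same was true of Meox2, a homeobox factor of mesoderm and vessels, at 7.27 to 9.46 CPM against 3.70 to 9.22 CPM (0.36 ± 0.15, SE). Plscr4, of the phospholipid scramblase family, had a log2 fold change of 0.34 ± 0.14 (SE), and Klhl4, a kelch-like protein, of 0.36 ± 0.16 (SE). In series 1, 2 and F, Klhl4 was at 0.60, 0.39 and -0.07, so it is not among the 6. In the same order Meox2 was at 0.68, 0.26 and 0.26, and Adgrv1 at 0.12, 0.35 and 0.90.

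The largest estimates of the genes taken on that side each rested on 1 library. Trns2, Trnv and Trni are names of mitochondrial transfer RNA genes. Trns2 was at 42.5 CPM in 1-14 and had a median of 7.28 CPM over Ctx_Coc, against 4.13 to 7.57 CPM in Ctx_Sal, and its log2 fold change of 1.10 ± 0.31 (SE) was 0.29 without 1-14. Trnv was at 63.8 CPM in 19-F, with a Ctx_Coc median of 8.28 CPM and a Ctx_Sal range of 4.33 to 12.4 CPM. Its log2 fold change of 1.17 ± 0.46 (SE) was -0.0073 without 19-F. For Trni the same library stood at 70.4 CPM, and the log2 fold change of 1.36 ± 0.54 (SE) was 0.23 without it. Ccnb1ip1, a ubiquitin ligase of meiotic recombination, was at 19.6 CPM in 1-14, and its log2 fold change of 1.15 ± 0.46 (SE) was -0.045 without that library. Rad21l1, a meiotic cohesin subunit, ran from 3.49 to 7.21 CPM against 1.99 to 6.38 CPM, a log2 fold change of 0.47 ± 0.19 (SE), and was negative in series F, at -0.22.

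**Figure D2:**
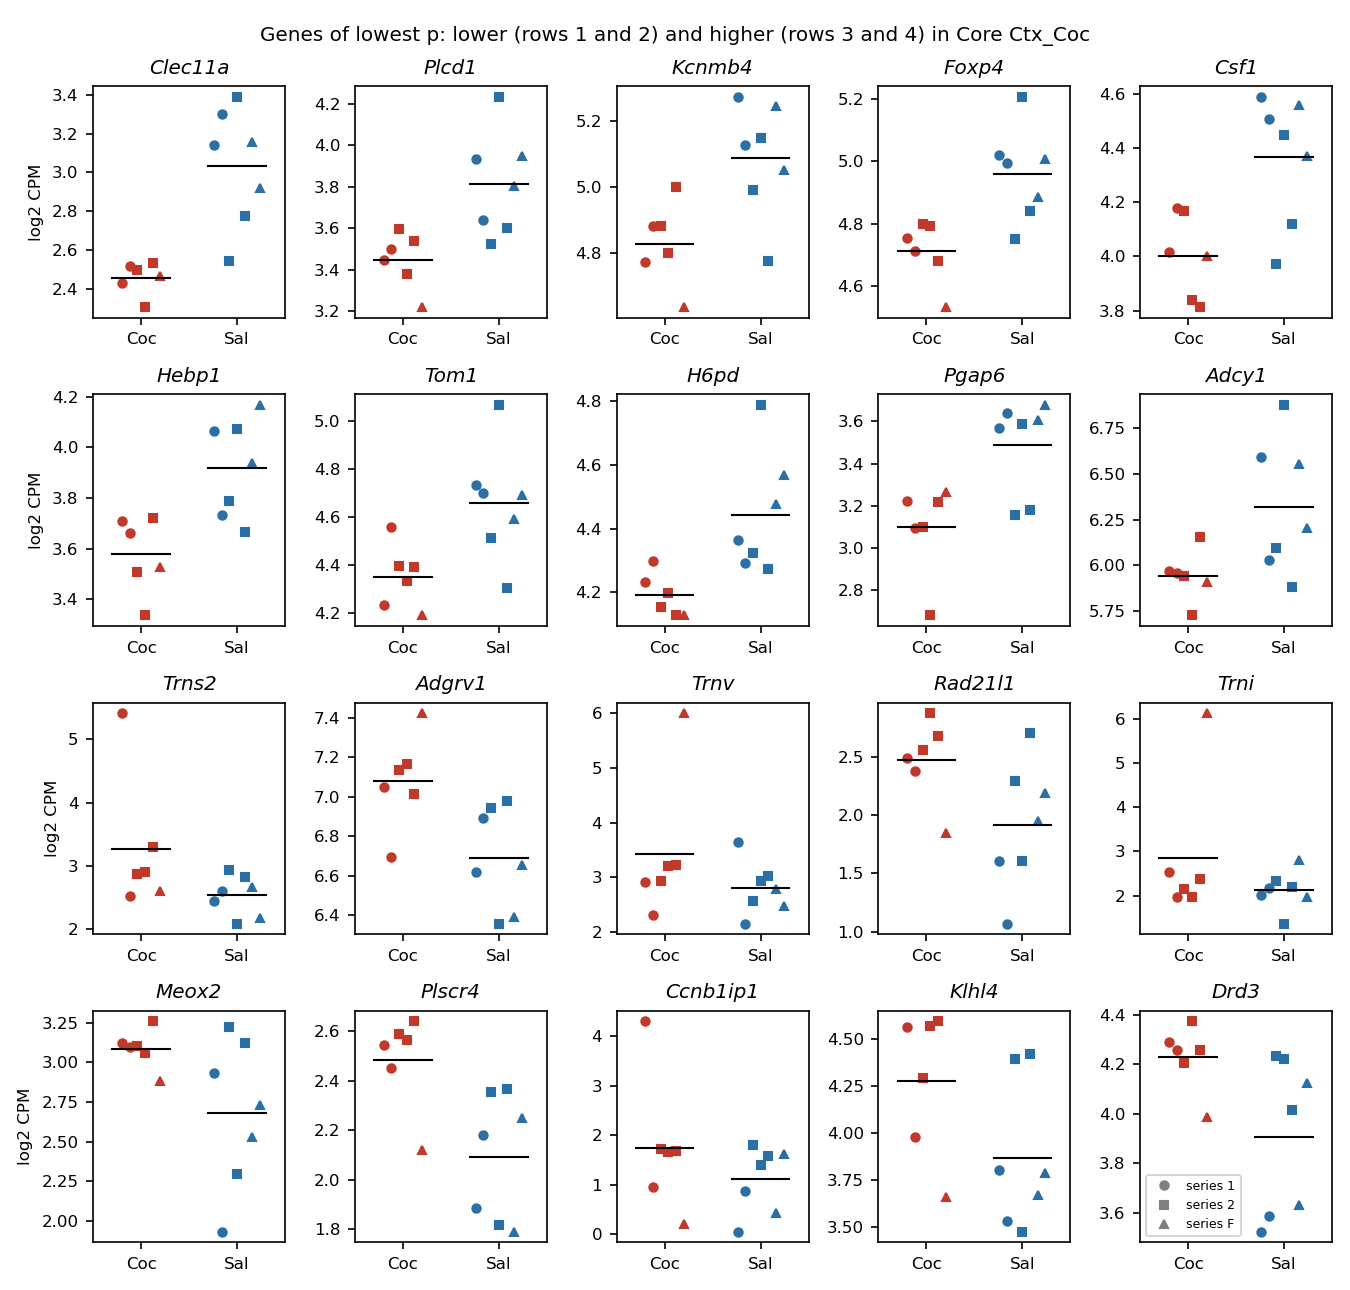
Level (log2 CPM, TMM-scaled) of 20 genes in each of the 13 libraries. They are the 10 genes of lowest p per direction with a standard symbol and a mean of at least 1 log2 CPM. Cocaine is on the left and saline on the right of each panel, point shapes are the series and the bar is the group mean. No gene passed the test. Clec11a is the one panel of the 20 without overlap, and in Trns2, Trnv, Trni and Ccnb1ip1 a single cocaine library stands far above the rest (42.5, 63.8, 70.4 and 19.6 CPM).

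Some of these genes overlap another gene in the RefSeq annotation of GRCr8, a build other than the one counted on, and the counting is not stated to use strand. Plcd1, Csf1, Hebp1, Tom1, Adcy1, Adgrv1, Plscr4 and Ccnb1ip1 each share positions with another entry there, Ccnb1ip1 with Parp2. Their values may hold reads of both genes. Clec11a, Kcnmb4, Foxp4, H6pd, Pgap6, Meox2, Klhl4 and Drd3 overlap none in that annotation. For Clec11a this covers only part of what was counted, since its counted length is 8547 bases against 3142 bases for the RefSeq entry.

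Immediate early and activity-induced genes showed no called difference. Of 28 genes on that list, 28 were tested, 0 passed, and 27 had a negative estimate, with a median log2 fold change of -0.26 against -0.15 for all well-expressed genes. At an unadjusted p under 0.05, 209 of the 8466 well-expressed genes were lower and 12 higher, beside 1.51% and 0.303% of all genes tested. On the list 3 were lower and 0 higher at that limit. Those 3 were Nptx2, a secreted pentraxin that clusters glutamate receptors (-0.59 ± 0.22, SE), Klf4, a zinc-finger transcription factor (-0.41 ± 0.18), and Btg2, an antiproliferative gene (-0.43 ± 0.21). Nptx2 ran from 6.10 to 14.1 CPM in Ctx_Coc (median 9.46) and from 8.02 to 23.6 CPM in Ctx_Sal (median 17.1), with series differences of -1.09, -0.35 and -0.04.

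Fos, a subunit of the AP-1 transcription factor, ran from 2.83 to 7.13 CPM in Ctx_Coc (median 5.53) and from 3.56 to 15.3 CPM in Ctx_Sal (median 6.77). The groups overlapped, and the log2 fold change was -0.44 ± 0.30 (SE). Arc, which acts in the trafficking of glutamate receptors at synapses, ran from 14.6 to 53.4 CPM (median 42.5) against 18.9 to 99.5 CPM (median 41.7), a log2 fold change of -0.42 ± 0.34 (SE). Egr1 had a higher median in Ctx_Coc, 27.9 against 23.2 CPM, and an estimate of the other sign, -0.25 ± 0.31 (SE). For Fosb the log2 fold change was -0.17 ± 0.22, for Npas4, a factor induced by calcium entry, -0.20 ± 0.19, and for the nuclear receptor Nr4a1, -0.26 ± 0.22 (SE). The sign depended on the series. In the order 1, 2 and F, Fos was -1.12, -0.28 and 0.26, Arc was -1.04, -0.46 and 0.47, and Egr1 was -1.02, -0.22 and 0.67. The median of the whole list followed the same order, at -0.65, -0.22 and 0.24, as did that of all well-expressed genes. The 95% interval of Fos, -1.05 to 0.18, includes a fall by more than 1 on the log2 scale.

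Bdnf, a growth factor induced by activity, could not be estimated with useful precision. It was at 0.371 CPM in 19-F and had a Ctx_Coc median of 8.90 CPM, against 1.44 to 9.77 CPM in Ctx_Sal. The log2 fold change was -0.07 ± 0.56 (SE), and its series differences were 1.52, 0.08 and -3.65. Those signs are the same as for the receptor genes in the same series (1.68, 0.29 and -1.27), the reverse of those of Fos, Arc and Egr1. The series F value rests on 1 cocaine library, and whether Bdnf goes with the background was not tested.

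Dopamine receptors and their signalling genes were tested in all 20 cases on the list, and 0 passed. Of these, 19 had a negative estimate, with a median of -0.14, close to that of well-expressed genes; Drd3 was the exception. Drd1, the D1 receptor of the direct-pathway projection neurons, ran from 23.4 to 132 CPM in Ctx_Coc (median 55.8) and from 32.4 to 120 CPM in Ctx_Sal (median 46.8). Its log2 fold change was -0.07 ± 0.28 (SE), against series values of -0.82, -0.11 and 0.94. Drd2, the D2 receptor of the indirect pathway, ran from 80.7 to 222 CPM (median 105) against 103 to 216 CPM (median 115), a log2 fold change of -0.12 ± 0.22 (SE). Adcy3, an adenylyl cyclase, was the other gene of this list with Adcy1 at an unadjusted p under 0.05 on the lower side, at -0.16 ± 0.08 (SE).

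Neuropeptides of the projection neurons overlapped widely between the groups. Pdyn, the precursor of dynorphin, had a log2 fold change of -0.15 ± 0.27 (SE), with medians of 45.3 CPM in Ctx_Coc and 45.5 CPM in Ctx_Sal. Penk, the precursor of enkephalin, ran from 101 to 601 CPM (median 211) against 123 to 536 CPM (median 314), a log2 fold change of -0.29 ± 0.30 (SE). Cartpt, whose peptide is named for its induction by cocaine and amphetamine, had a log2 fold change of 0.14 ± 0.28 (SE), with medians of 22.4 and 15.9 CPM. On the list of opioid and cannabinoid genes 0 of 14 passed and 12 were negative. Oprm1, the mu opioid receptor, was one of the positive ones, with all 6 cocaine libraries above the saline median: 42.2 to 55.8 CPM against 36.8 to 50.9 CPM, a log2 fold change of 0.17 ± 0.09 (SE). Daglb and Faah, which make and break down endocannabinoids, had estimates of -0.19 ± 0.09 and -0.30 ± 0.16 (SE).

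**Figure D3:**
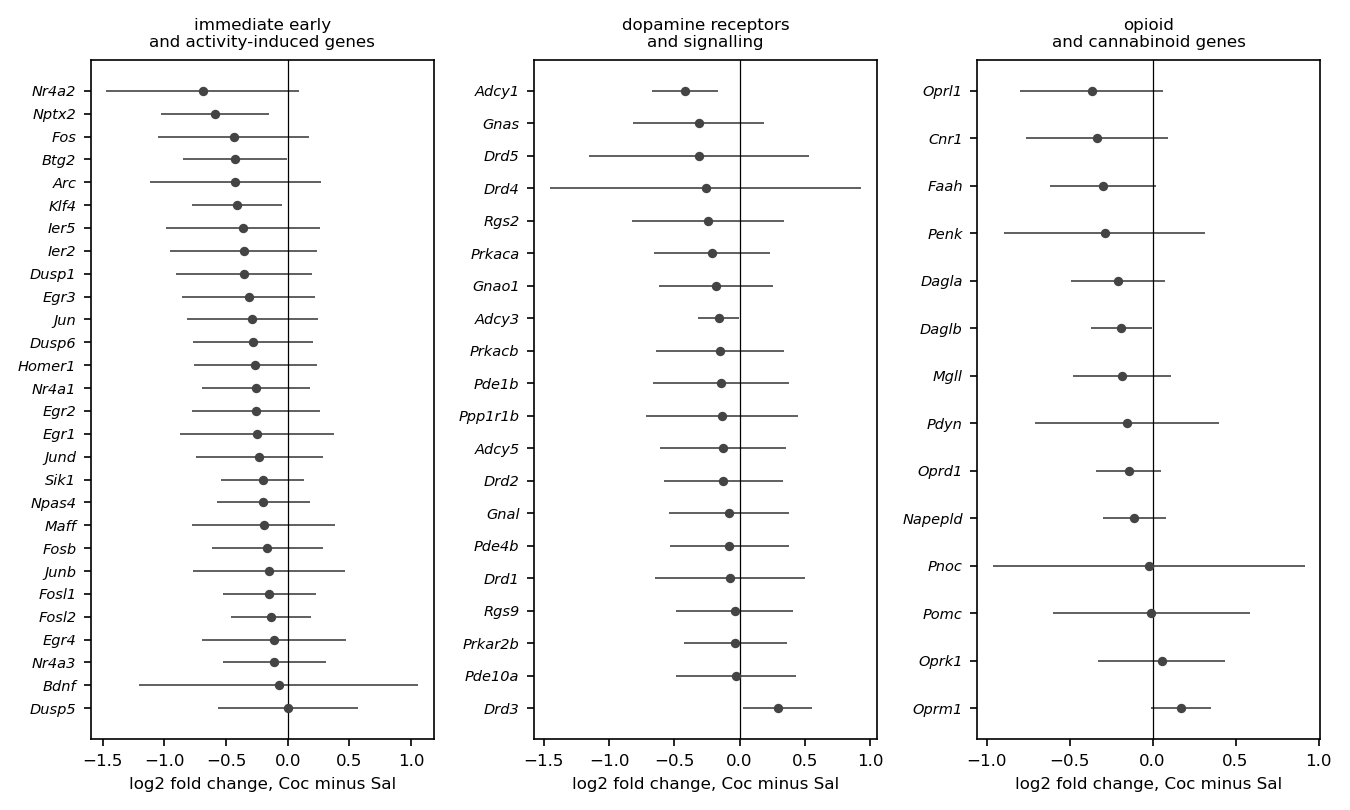
Log2 fold change (Ctx_Coc minus Ctx_Sal) with its 95% interval for each tested gene of 3 lists, from the fit over all series. Of the 28 activity-induced genes 27 are negative, of the 20 dopamine genes 19, and of the 14 opioid and cannabinoid genes 12; none passed the test, and Drd3 and Oprm1 are among the positive estimates.

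No synaptic gene passed the test, and most estimates were negative, as for 88.1% of all well-expressed genes. Of 24 vesicle release genes, 24 were negative, with a median of -0.23 against -0.15 for well-expressed genes. At an unadjusted p under 0.05, 3 were lower, beside 209 of the 8466 well-expressed genes and 1.51% of all genes tested. With the background as a covariate 14 of the 24 were negative. Stx1a, a membrane fusion protein of the presynaptic terminal, had a log2 fold change of -0.43 ± 0.16 (SE), the vesicle protein Sv2b of -0.31 ± 0.14, and the endocytosis adaptor Amph of -0.28 ± 0.13. Stx1a ran from 13.8 to 21.5 CPM in Ctx_Coc and from 14.8 to 35.5 CPM in Ctx_Sal, and was negative in each series (-0.52, -0.33 and -0.29). Of 17 postsynaptic scaffold genes, 17 were negative, with a median of -0.20; Shank1 had the lowest estimate, -0.40 ± 0.25 (SE), and with the background as a covariate 13 of the 17 were negative. The median within series was -0.80 in series 1 and 0.55 in series F for the scaffold genes, and -0.89 and 0.53 for the vesicle release genes.

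Receptors for glutamate and GABA lay near the median of well-expressed genes. The AMPA receptor list had 10 of 12 negative (median -0.10), the NMDA and kainate list 10 of 12 (median -0.14), and the metabotropic list 6 of 7 (median -0.13). Grik3, a kainate receptor subunit, stood at 124 to 141 CPM in Ctx_Coc and 122 to 197 CPM in Ctx_Sal, a log2 fold change of -0.19 ± 0.08 (SE). The GABA list had 18 of 19 negative (median -0.12), with Gabbr2, a subunit of the metabotropic GABA receptor, at -0.28 ± 0.12 (SE). Potassium channels had 22 of 24 negative (median -0.18), and sodium and calcium channels 22 of 23 (median -0.15). Cacna1g, a low-threshold calcium channel, had the lowest estimate of the latter, -0.41 ± 0.18 (SE), with -0.05, -0.19 and -0.996 in series 1, 2 and F, the last from 1 cocaine library. No gene of these 6 lists passed the test.

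Genes of cortical glutamatergic neurons had the most negative median of the 36 lists, -0.47, with 11 of 11 negative, 5 of them at an unadjusted p under 0.05 (beside 1.51% of all genes tested) and 0 called. Series F weighed most in that value: the median was -0.25, -0.27 and -1.58 in series 1, 2 and F, with 1 cocaine library in the last. Without 19-F it was -0.20 and without 23-F -0.17, and myelin genes then had the most negative median, at -0.45 and -0.42. Without series F the cortical median was -0.31. With the background as a covariate, in a fit that kept 19-F, it was -0.63, and 10 of the 11 were negative. The 11 genes are markers of tissue outside the accumbens, which contains few such neurons. Neurod2, a transcription factor of cortical excitatory neurons, ran from 0.594 to 3.52 CPM in Ctx_Coc (median 1.25) and from 0.722 to 9.70 CPM in Ctx_Sal (median 1.74), a log2 fold change of -1.71 ± 0.57 (SE). Neurod6, a relative of it, had a log2 fold change of -1.36 ± 0.58 (SE), and Nptxr, a receptor for pentraxins, of -0.84 ± 0.34. Cck, a peptide of cortical and other neurons, was at 2.23 to 10.9 CPM against 3.60 to 19.0 CPM, a log2 fold change of -1.38 ± 0.50 (SE). In the shell the median of the cortical list was -0.06. Neurod2 and Neurod6 were at -1.93 ± 0.65 and -1.68 ± 0.62 (SE) there. Nptxr was at -1.71 ± 0.42 and Cck at -1.85 ± 0.61, and none passed the edgeR test. The summed level of the 11 markers, in CPM of total counts, ran from 148 to 380 in Ctx_Coc, with a median of 285. In Ctx_Sal it ran from 147 to 539, with a median of 275, so by this sum the cocaine median was not the lower one. The highest value was in the saline library 2-17, and the next saline library, 2-16, was at 306. In bulk tissue fewer cells of a type and less RNA per cell cannot be told apart. Their part in the other differences was not tested.

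Glial and vascular genes had 0 called on any list. Of 13 astrocyte genes 13 were negative (median -0.23), of 14 myelin genes 13 (median -0.32), of 6 oligodendrocyte precursor genes 6 (median -0.26) and of 14 microglial genes 13 (median -0.24). Neu4, a sialidase of oligodendrocyte precursors, ran from 4.31 to 5.08 CPM in Ctx_Coc (median 4.76) and from 4.55 to 7.35 CPM in Ctx_Sal (median 6.55), a log2 fold change of -0.38 ± 0.14 (SE). Pdgfrb, the receptor that marks pericytes, ran from 24.3 to 29.9 CPM (median 27.7) against 28.0 to 43.1 CPM (median 33.9), a log2 fold change of -0.32 ± 0.10 (SE), and its series differences were -0.30, -0.27 and -0.42. The rest of the mural and fibroblast list did not follow it, since 4 of its 12 genes were positive and its median was -0.12. Csf1r, the receptor for Csf1, had a log2 fold change of -0.22 ± 0.15 (SE), of -0.56 in series 1 and 0.10 in series F. Hba-a1, a haemoglobin chain that marks blood left in the tissue, was at -0.65 ± 0.41 (SE).

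Regulators that have been linked to cocaine before, among them Atf4 and Nfkb1, had 19 of 21 negative estimates (median -0.15), and histone and DNA modifying enzymes 29 of 30 (median -0.17); 0 of either passed. Hdac5, a histone deacetylase known from work on cocaine reward, had a log2 fold change of -0.29 ± 0.21 (SE), with -0.91, -0.16 and 0.40 in series 1, 2 and F. Circadian genes had 17 of 17 negative (median -0.16), heat shock genes 12 of 13 (median -0.21), and genes of the glucocorticoid response 12 of 13 (median -0.19). Fkbp5, a chaperone induced by glucocorticoids, stood at 52.4 to 77.9 CPM against 60.4 to 79.4 CPM, a log2 fold change of -0.17 ± 0.09 (SE). Genes of glycogen and glucose metabolism had 17 of 17 negative (median -0.24), with the glycogen phosphatase subunit Ppp1r3g at -0.42 ± 0.20 (SE). Phosphoinositide signalling had 16 of 18 negative (median -0.16), and after Plcd1 its lowest p was that of Plcd4, at -0.15 ± 0.12 (SE).

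The remaining lists also had 0 called. Markers of striatal projection neurons had 14 of 16 negative (median -0.08). Their median was -0.23 without 19-F and -0.20 without 23-F, and it turned to 0.07 once background was a covariate, with 4 of 16 negative. Markers of striatal interneurons had 11 of 14 negative (median -0.09), Cck among them. Septal and pallidal markers had 7 of 7 negative (median -0.21), choroid plexus and ependymal markers 8 of 10 (median -0.06), endothelial markers 8 of 10 (median -0.16) and blood cell markers 6 of 9 (median -0.27). Proteins of the mitochondrial genome had 12 of 13 negative (median -0.29), glial glutamate uptake genes 7 of 7 (median -0.24), and interferon and antigen presentation genes 16 of 18 tested (median -0.17). Neuropeptides and their receptors outside the opioid list had 12 of 20 negative (median -0.05), growth factor genes 17 of 20 (median -0.11), and extracellular matrix genes 19 of 25 (median -0.13). In that last list Clec11a had the lowest estimate. Over the 36 lists, 36 medians were negative. Without 19-F, or without 23-F, 34 were negative, and without series F 32 were. With the background as a covariate 29 were negative and 7 positive, the latter being the dopamine, AMPA, NMDA and kainate, GABA, sodium and calcium channel, projection neuron and circadian lists. Under that covariate the medians of activity-induced, dopamine and vesicle release genes were -0.11, 0.05 and -0.02.

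**Figure D4:**
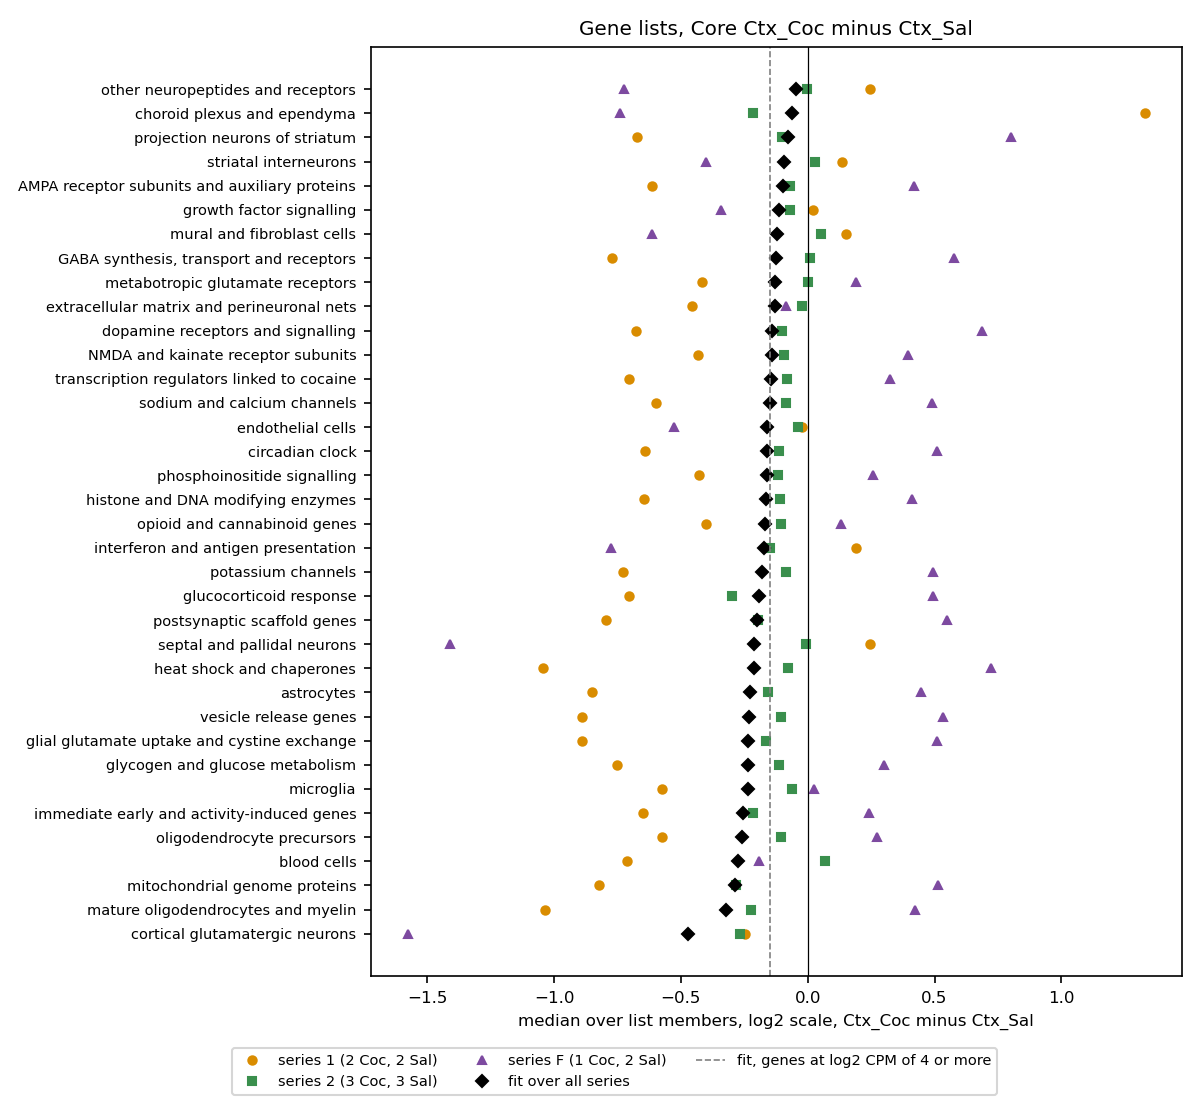
Median difference (Ctx_Coc minus Ctx_Sal, log2 scale) over the members of each of 36 gene lists, in the fit over all series (black) and within series 1, 2 and F; the dashed line is the median of all 8466 well-expressed genes, -0.15. Most lists are negative in series 1 and positive in series F, as for activity-induced genes (-0.65 and 0.24), and the cortical list, at -0.47 in the fit over all series, is at -1.58 in series F and at -0.20 when 19-F is left out.

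The cocaine difference in Ctx was next compared with that in HC and in Ext within the core, as a difference of differences in the same fit. No gene passed in either (0% of 32016 tested in both). The lowest edgeR adjusted p was 0.662 against HC and 0.758 against Ext. Unadjusted, 781 and 573 genes had a p under 0.05, and the DESeq2 test made 0 calls in both. Clec11a had a cocaine-saline difference of -0.02 ± 0.11 (SE) in HC and of 0.01 ± 0.11 in Ext, beside -0.58 ± 0.12 in Ctx. The difference of these was -0.56 ± 0.16 (SE) against HC and -0.59 ± 0.16 against Ext, neither of which passed. Plcd1 was at 0.06 ± 0.09 in HC and 0.05 ± 0.09 in Ext, Pgap6 at 0.14 ± 0.11 and -0.07 ± 0.11, and Adcy1 at 0.06 ± 0.12 and 0.08 ± 0.12 (SE). Activity-induced genes had a median of 0.26 in HC and 0.16 in Ext, against -0.26 in Ctx; for all well-expressed genes the medians were 0.12, 0.12 and -0.15. The cocaine-saline differences in HC and Ext share the fit but no libraries with the one in Ctx. Both differences of differences contain the Ctx libraries, on which Clec11a, Plcd1, Pgap6 and Adcy1 were picked.

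The genes named for each test of a difference met the same limits of symbol and level. Against HC, those of lowest p on the higher side were Rad21l1 (0.75 ± 0.26, SE), the transfer RNA gene Trnp (0.92 ± 0.34) and Emcn, an endothelial sialomucin (0.78 ± 0.30). Against Ext, Trnt had the largest value, 5.06 ± 1.40 (SE), from a difference of -3.95 in Ext and 1.11 in Ctx. Cpne8, a calcium-dependent membrane-binding protein, was at 0.39 ± 0.12, and Rab32, a small GTPase, at 1.12 ± 0.38. On the lower side against Ext stood Psmg3, a proteasome assembly chaperone (-1.15 ± 0.30, SE), and Nxpe3 (-0.31 ± 0.10). None of these passed the edgeR test.

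Between core and shell, the cocaine difference in Ctx was not called unlike for any of 32373 genes (0%). The lowest edgeR adjusted p was 1, and 229 genes had an unadjusted p under 0.05. The DESeq2 test called 1, LOC120100333. Clec11a was at -0.25 ± 0.13 (SE) in the shell, Adcy1 at -0.38 ± 0.15, Plcd1 at 0.04 ± 0.09 and Trim47 at 0.24 ± 0.18. The core minus shell difference was -0.37 ± 0.19 for Clec11a, -0.06 ± 0.22 for Adcy1, -0.45 ± 0.13 for Plcd1 and -0.76 ± 0.26 for Trim47 (SE). Among genes within the limits of symbol and level, Plcd1 had the lowest p on the lower side. It was followed by Krt85, a hair keratin (-0.81 ± 0.24, SE), and Rgs3, a regulator of G protein signalling (-0.37 ± 0.11). On the higher side were Prg4, a joint lubricant glycoprotein (1.504 ± 0.52, SE), Ptgds, a prostaglandin synthase of meninges and choroid plexus (2.94 ± 1.05), and Trnh (0.84 ± 0.31). For Ptgds the value came from the shell, where its cocaine-saline difference was -3.28, against -0.11 in the core. Well-expressed genes had a median of -0.13 in the shell and of -0.15 in the core, and activity-induced genes of -0.21 and -0.26.

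**Figure D5:**
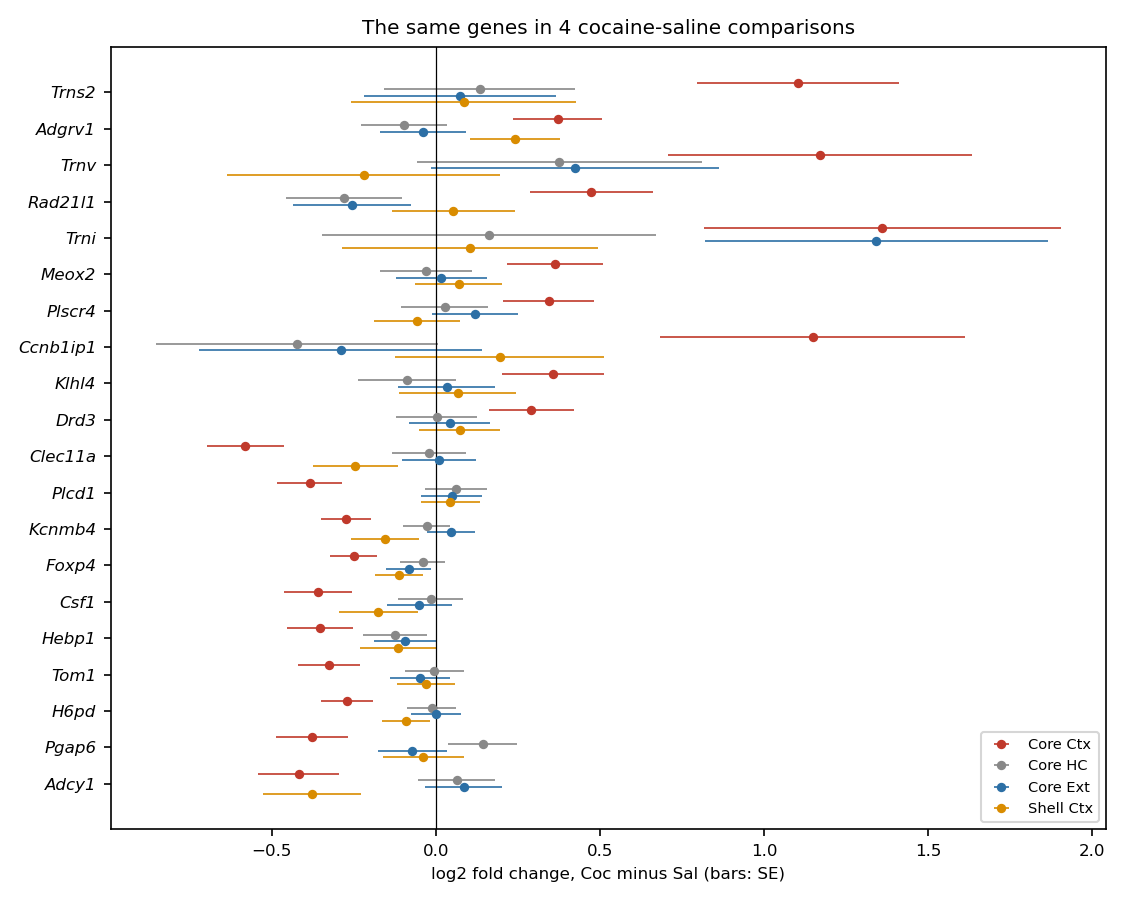
Log2 fold change (cocaine minus saline, bars SE) of the 20 genes of lowest p in Core Ctx, and of the same genes in Core HC, Core Ext and Shell Ctx. Since the genes were picked on the Core Ctx values, these lie farther from 0 by choice; Adcy1 has a like value in Shell Ctx (-0.38) and Trni in Core Ext (1.34), and for none of these 20 genes did a difference between the comparisons pass the edgeR test.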

How the data were processed

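RNA was taken from rat nucleus accumbens core and shell with a Direct-zol kit and sequenced as total RNA with the SMARTer Stranded Total RNA-seq v3 Pico kit, per the labels' protocols. The authors deposited raw read counts per gene for 84 libraries, made with featureCounts (version not given) on mRatBN7.2 per the submitters' processing notes, and FPKM values for the same genes. The strand setting is not given in the sources used here. Dividing deposited counts by FPKM gives each gene's length: 109355 bases for Adcy1, about its whole gene span in RefSeq GRCr8, so counts appear to take in introns; for Clec11a it is 8547 bases against 3142 in RefSeq. FPKM was used for nothing else, and all 84 columns of each kind were matched to a library, leaving 0 unused.

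The 41919 genes of the table were filtered with filterByExpr, scaled with TMM and fitted with edgeR 4.0.16 (R 4.3.3) over 41 Core libraries, leaving out 17-F, with group and series as terms. The core-shell difference used 83 libraries, with series F against the numbered series as the covariate and no term for pairs of core and shell libraries. Calls needed a Benjamini-Hochberg adjusted p under 0.05. Log2 CPM in the figures used a prior count of 2. DESeq2 1.42.0 was an alternative test. Totals over the 41 libraries ran from 13628550 to 22494761 counts, and no 2 of the 13 libraries had identical counts (the highest correlation was 0.990). Receptor background sums 2033 gene names. Values within a series are differences of mean log2 CPM.

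The members and gene lists were chosen with earlier results of these data known. Named genes are the 10 of lowest p in each direction with a symbol and a mean of at least 1 log2 CPM (3 per direction for each difference), up to 3 of lowest p in each of 36 lists, and 16 always named. Alternatives covered scaling, filter, test, covariates, the libraries used, and leaving out each of 13 libraries in turn.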

Additional observations from a re-analysis of the deposited data

Results flagged for a closer look

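Within the 6 Ctx_Coc or the 7 Ctx_Sal libraries, 70 sets of values were searched for a single library far from the others, and 9 had one; chance gives about 1 in 20. In Ctx_Coc, 1-14 was high for Trns2 (5.412 log2 CPM, the next library at 3.298) and for Ccnb1ip1 (4.303, next 1.723). The cocaine library 19-F was high for Trnv (5.999, next 3.233) and Trni (6.141, next 2.544). It was low for Plscr4 (2.119, next 2.452) and Bdnf (-1.048, next 2.521). Its receptor background was low as well, at 6.177 log2 CPM against 9.196 in the next library. For Pgap6 the cocaine library 2-14 was low (2.681, next 3.096). In Ctx_Sal, 21-F had the most counts, 21188436, with the next library at 17357444.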

How the results depend on the processing

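Of the 24 other settings tried for the first comparison, 21 also called 0 genes. The DESeq2 test called 1 (Clec11a), the fit with background as a covariate 2 (Duoxa2 and LOC120098720), and series 2 alone 17, all lower in Ctx_Coc and without a standard symbol. In series 2 alone, 19 genes were called in the difference against HC and 11 in that against Ext. The difference between core and shell had 1 call with DESeq2 and 1 with the replicate block, which paired core and shell libraries by number. The cause was not tested for any of these calls. Over 10 same-numbered pairs of the Ctx groups, correlations ran from -0.17 to 0.45 with a median of 0.22, after 2 components were removed. Other pairings had a median of -0.07. No label states a pairing, and the main core-shell fit treated the libraries as separate. If the numbers do pair libraries, its standard errors and p-values leave that out. Genes at an unadjusted p under 0.05 (97 higher, 485 lower) became 171 and 305 with DESeq2 size factors, 2151 and 1291 with 17-F, 3838 and 2693 without series F, 4897 and 808 in series 1 alone, and 261 and 4895 with the background covariate. Leaving out 1 library gave 39 to 363 higher and 201 to 896 lower, the lowest without 2-17 and the highest without 23-F; 0 were called each time.

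The sign reversed for Trnv in series 1 alone (-0.44), and in series F alone for Rad21l1 (-0.077), Ccnb1ip1 (-0.83), Fos (0.31), Arc (0.24), Npas4 (0.58) and Nr4a1 (0.45). Leaving out each library gave -0.045 to 1.41 for Ccnb1ip1 and -0.0073 to 1.41 for Trnv. In 26 further cases an estimate within 1 SE of 0 changed sign, and in 756 sign and call were as first reported. Depth limits genes of a few CPM.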

Other observations

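The 17 genes called in series 2 alone, mostly consecutively numbered identifiers, were chosen after their values were seen. Summed, they stood at 25.0, 31.5 and 24.5 CPM of total counts in the cocaine libraries 2-13, 2-14 and 2-15, and at 100, 70.0 and 168 CPM in the saline libraries 2-16, 2-17 and 2-18. The shell libraries of matching numbers had 25.0, 25.9 and 23.5 CPM in cocaine (4-13, 4-14 and 4-15) and 114, 89.2 and 148 CPM in saline (4-16, 4-17 and 4-18). In series 1 the core values were 26.7 and 49.7 CPM in cocaine and 19.1 and 8.98 CPM in saline, so the saline libraries were the lower ones there. In series F the cocaine library 19-F was at 16.0 CPM and the saline libraries 21-F and 23-F at 22.0 and 81.6 CPM; 17-F, which was left out, stood at 510 CPM. The shell libraries with names starting in 3 had 22.6 and 89.0 CPM in cocaine (3-14 and 3-15) and 60.5 and 22.1 CPM in saline (3-17 and 3-18).

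RGD1563601 was at 1.74 to 3.45 CPM of total counts in the 6 Core Ctx_Coc libraries and at 2.19 to 17.7 CPM in the 7 Core Ctx_Sal libraries. Its log2 fold change was -1.97 ± 0.48 (SE), at an unadjusted edgeR p of 0.00021 and an adjusted p of 0.9995. In the shell it was at 1.70 to 10.6 CPM in the Ctx_Coc libraries, with 18-F the highest, and at 4.30 to 13.1 CPM in the Ctx_Sal libraries. LOC100911193 was at 272 CPM in the cocaine library 19-F and at 6.57 to 14.5 CPM in the other 12 of the 13 libraries. Its log2 fold change was 2.22 ± 0.58 (SE). Both were picked after their values were seen, and neither passed the test.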
